A study of Mus musculus with 10 samples.

Results

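The genes described here are 51 mouse genes of the urea cycle and amino acid catabolism, measured in liver. They are listed by name from the pathway, with earlier results of these data known, and the rule that finds them uses no level. They were looked up among the non-control probes of the array under their current or an older symbol. A probe of that name was present for 49 of the 51, of 27666 genes or transcripts named in all. No probe was named Haao or Amt. The single Acmsd probe was well above background on only 3 wild-type and 3 knockout arrays and was not tested, so 48 members were compared, of 15808 genes tested in all. All 48 were well above background on all 10 arrays.

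The RNA came from livers of 1-year-old C57BL/6 mice and was read with 1 dye, Cy3, on Agilent arrays. The 5 wild-type arrays are called WT1 to WT5, and the 5 arrays of mice lacking the nuclear orphan receptor TAK1/TR4, encoded by Nr2c2, are called KO1 to KO5. The labels state neither how the allele was made nor that the arrays are of different animals, and the p-values cover only the spread among these arrays, which may be technical. A level below is the log2 processed intensity of a gene's brightest probe minus the array's 75th percentile, and a difference is the knockout mean minus the wild-type mean of such levels. Differences were tested with limma and Benjamini-Hochberg adjustment across the 15808 genes, and a gene is said to have fallen or risen where its adjusted p was under 0.05.

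Amino acid breakdown is a task of the hepatocyte. Transaminases and dehydratases remove the amino group, the carbon skeletons are oxidised along pathways particular to each amino acid, many of them in mitochondria, and the urea cycle turns the freed ammonia into urea across the mitochondrion and the cytosol. Several of these enzymes are known to be induced by fasting, glucagon or glucocorticoids. In bulk liver, fewer cells of a type and less RNA per cell cannot be told apart.

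Nearly all members were somewhat lower in the knockout, but most of that shift came from 1 array. The difference was below 0 for 47 of 48 members, against 48.1% of all genes (41 of 48 without scaling and 48 with median centring), and the median difference of the members was -0.34 on the log2 scale, against 0.01 for all genes. Only 3 of 48 members (6.25%) passed the test, all lower: the alanine transaminase Gpt2, the urocanase Uroc1 and the propionyl-CoA carboxylase subunit Pccb. Of all genes, 3.49% passed as lower and 2.45% as higher which leaves the members' share near the background. An unadjusted p under 0.05 was reached by 15 members. The share of all genes that reached it is not given here, so this count is not read as particular to the members. Such p-values were also common among all genes: Prodh, with an unadjusted p of 0.0487, had an adjusted p of 0.208 (limma). On 10 of 48 members (20.8%) every knockout array lay below every wild-type array, against 5.43% of all genes.

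KO2 stood apart from the other 9 arrays on these genes. It was the lowest of the 10 arrays for 40 of 48 members, against 25.6% of all genes, and lay at least 2-fold below the wild-type mean for 20 of 48, against 5.52% of all genes. Relative to the wild-type mean, the median member was at -0.94 on KO2, at -0.12 on KO1, at -0.20 on KO3, at -0.13 on KO4 and at -0.12 on KO5. The wild-type arrays lay between -0.05 and 0.08 by the same measure, and the median of all genes on KO2 was -0.02. The knockout arrays other than KO2 were thus also below all 5 wild-type arrays in this median, by much less than KO2. Its correlation with the other knockout arrays over all genes was 0.965 to 0.974. Differences of members are therefore given below with and without KO2.

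**Figure D1:**
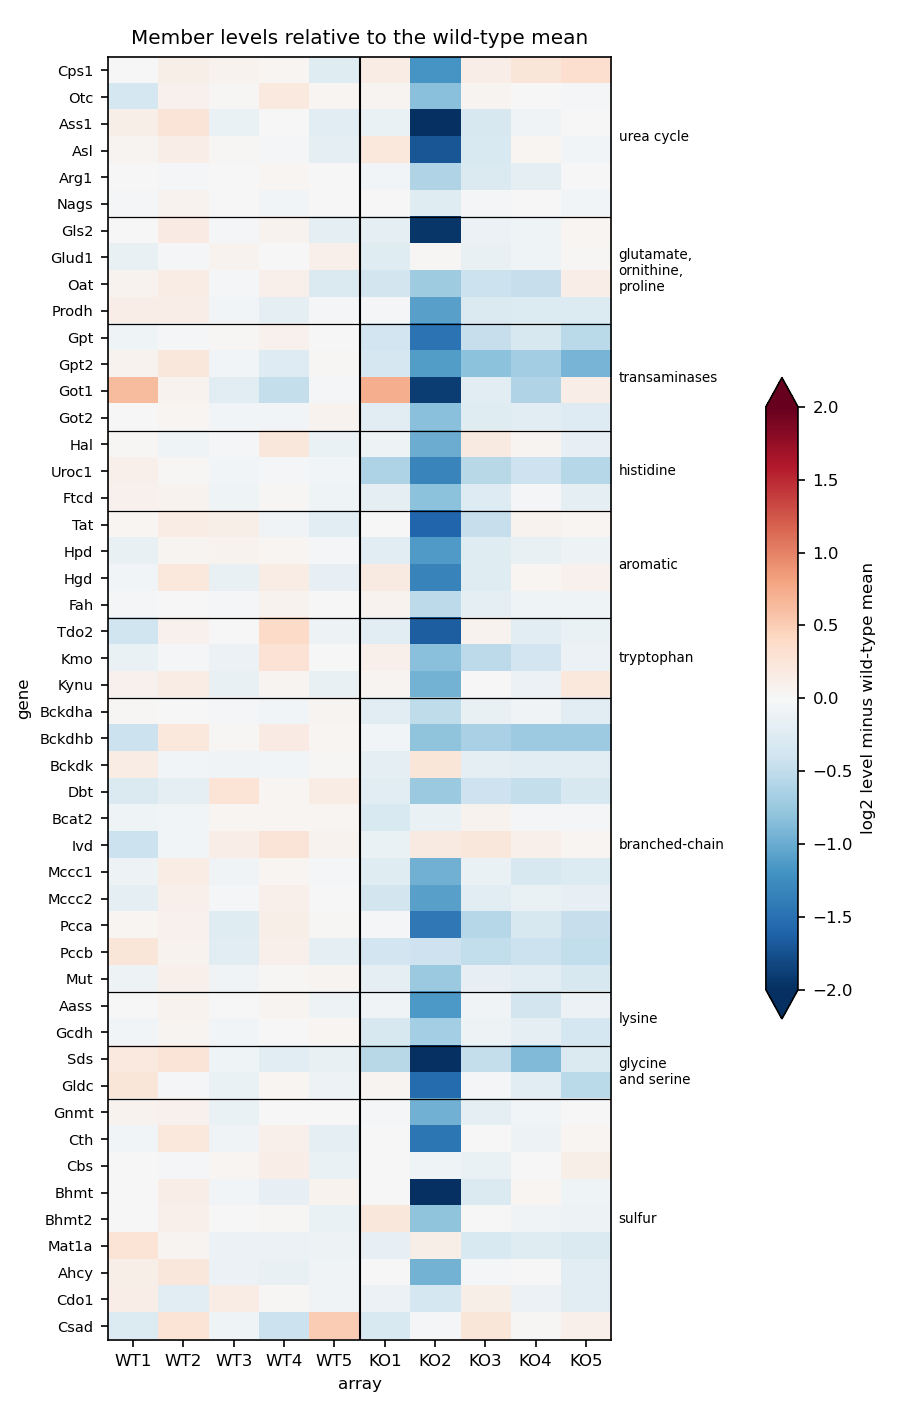
Level of each of the 48 members tested (rows, by pathway) on each array (columns) as the log2 level minus the wild-type mean of that gene, with colours saturating at 2 in either direction. The column of KO2 is blue for most genes, and the other 4 knockout arrays are paler. Sds, at -4.07, Ass1, at -2.30, and Bhmt, at -2.04, lie past the end of the scale on KO2.

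With KO2 left out, the median difference of the members was -0.13, against 0.02 for all genes, and 40 of 48 differences were below 0, against 47% of all genes. The number of members that passed went from 3 to 5, all lower, and included the 3 named above. The 2 added were the cytosolic alanine transaminase Gpt and the mitochondrial aspartate transaminase Got2. The 5 are 10.4% of the members, against 3.89% of all genes called lower and 2.9% called higher in that fit. On 12 of 48 members (25%) KO1, KO3, KO4 and KO5 all lay below every wild-type array, against 6.52% of all genes. KO2 was set apart after its values on these same members were seen. Shares without KO2, here and below, are therefore descriptions and not a test. The median standard error of the members went from 0.17 to 0.09 without KO2, and the knockout SD exceeded the wild-type SD in 43 members with KO2 and in 25 without it. The counts of larger knockout SDs are given without the share over all genes and are not read as particular to the members. Over all genes, too, the knockout arrays agreed less with each other. Correlations within the group ran from 0.965 to 0.988 in the knockout and from 0.988 to 0.994 in wild type. WT1 to WT4 shared a slide and the knockout arrays did not all do so. Slide and genotype therefore cannot be told apart in these correlations.

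**Figure D2:**
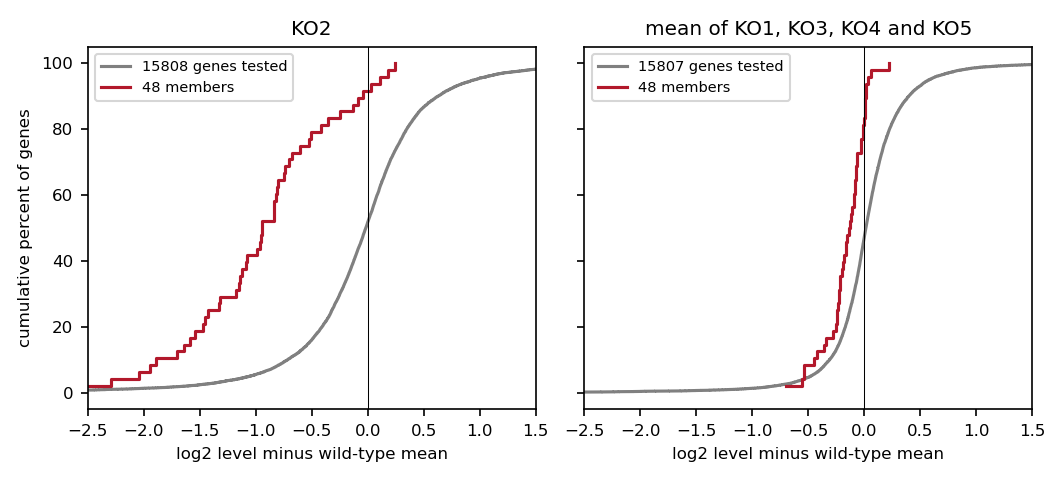
Cumulative percent of genes (vertical) against the log2 level minus the wild-type mean (horizontal), for KO2 (left) and for the mean of the other 4 knockout arrays (right), with the members in red and all genes tested in grey. On KO2 the members' curve lies far left of the curve of all genes, with a median of -0.94 against -0.02, and on the other arrays the shift is smaller.

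Slide and genotype overlapped only in part. Slide 1 carried WT1 to WT4, slide 2 carried WT5 with KO1, KO2 and KO3, and KO5 and KO4 had slides of their own, that of KO4 scanned on a later day. Within slide 2, the only slide with both genotypes, the median difference of the members was -0.39 with KO2 and -0.13 without it, with 46 and 30 of 48 below 0. Slide 2 holds 1 wild-type array and 3 knockout arrays, and no member passed there: limma called 0 at an adjusted p under 0.05 and 0 had an unadjusted p under 0.05.

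The regulatory sequence before the genes that fell is shown because TR4 is known to bind direct repeats of the hexamer AGGTCA. Each line gives the 250 bases before the RefSeq start of the gene in GRCm38.p6, on the strand of the gene, with any AGGTCA match on either strand in capitals. The windows are chr8:85492326-85492575 (plus strand) for Gpt2, chr6:90333039-90333288 (plus strand) for Uroc1 and chr9:101034885-101035134 (minus strand) for Pccb.
Gpt2: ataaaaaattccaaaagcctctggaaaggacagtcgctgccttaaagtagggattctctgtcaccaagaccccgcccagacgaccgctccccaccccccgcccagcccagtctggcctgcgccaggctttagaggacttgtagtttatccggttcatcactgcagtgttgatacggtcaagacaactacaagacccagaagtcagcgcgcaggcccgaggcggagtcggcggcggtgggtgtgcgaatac
Uroc1: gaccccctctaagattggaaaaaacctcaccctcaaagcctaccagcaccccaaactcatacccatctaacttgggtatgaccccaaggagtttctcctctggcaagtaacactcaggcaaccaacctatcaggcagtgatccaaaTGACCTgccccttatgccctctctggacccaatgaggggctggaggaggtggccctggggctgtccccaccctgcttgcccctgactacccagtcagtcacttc
Pccb: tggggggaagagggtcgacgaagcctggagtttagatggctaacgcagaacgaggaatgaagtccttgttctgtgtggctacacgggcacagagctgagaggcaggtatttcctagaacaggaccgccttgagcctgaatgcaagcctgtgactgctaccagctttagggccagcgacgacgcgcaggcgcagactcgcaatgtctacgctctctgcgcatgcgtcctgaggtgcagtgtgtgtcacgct

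The Uroc1 window holds 1 match, on the reverse strand, 104 bases before the start, and these letters are in neither of the other windows shown. RefSeq windows of 300 bases, from 250 before to 50 after a start, were present for 39 members, with 43 windows between them. The direct repeat of 2 such hexamers with any 1 base between them (DR1), searched on both strands, was in 0 of the 43, and in 0.0378% of 13241 windows of tested genes. The single hexamer AGGTCA, which every such repeat also contains, was in 16 of the 43 windows (37.2%) on either strand, against 13.4% of the windows of tested genes and 16.3% of all 32851 windows. The 15 members with a match were Aass, Acmsd, Ahcy, Amt, Bckdhb, Bhmt, Gnmt, Got1, Got2, Haao, Hgd, Nags, Pcca, Tdo2 and Uroc1. Of these, Acmsd, Amt and Haao were not tested, so the 43 windows are not all of tested genes. A match is a description of the letters, not of binding.

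In the pathways below where 0 members passed by limma, the number with an unadjusted p under 0.05 was 2 for glutamate, ornithine and proline, 1 for lysine, and 0 for the urea cycle, aromatic, tryptophan, glycine and serine, and sulfur groups. Such p-values were common among all genes, as shown above with Prodh, so these counts are not read as results about the pathways.

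The urea cycle enzymes did not pass the test with or without KO2. Their 6 differences ranged from -0.56 to -0.06, with a median of -0.19, and without KO2 the median was -0.03 and 4 of 6 were below 0. The probe of Ass1, argininosuccinate synthase, is shown because its reading on KO2 is among the members' lowest relative to wild type. Its 60 bases align in the files over 1640 bases of mm7 (chr2:31526070-31527709), so they span a splice junction, and its letters are as follows.
Ass1: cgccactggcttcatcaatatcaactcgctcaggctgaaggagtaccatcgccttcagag

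The Ass1 level was 7.59, 7.71, 7.32, 7.46 and 7.23 on WT1 to WT5 and 7.33, 5.17, 7.14, 7.39 and 7.48 on KO1 to KO5. KO2 was 4.91-fold below the wild-type mean, while the other 4 knockout arrays lay within or just below the wild-type range. The difference was -0.56 (SE 0.40, adjusted p = 0.429, limma) and -0.13 without KO2 (adjusted p = 0.539, limma). Arg1, the arginase that releases urea, had the smallest p of the cycle, with 6.91, 6.87, 6.90, 6.95 and 6.92 in wild type and 6.85, 6.30, 6.62, 6.73 and 6.90 in the knockout. Its groups overlapped through KO5, and its difference was -0.23 (SE 0.11, adjusted p = 0.231, limma), or -0.13 without KO2.

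Asl, which splits argininosuccinate, read 3.98 on KO2, 3.27-fold below the wild-type mean, against 5.38 to 5.90 on the other knockout arrays and 5.50 to 5.83 in wild type. Cps1, the entry enzyme of the cycle, read 5.41 on KO2 against 6.73 to 6.93 on the other knockout arrays, which were all above the wild-type range of 6.35 to 6.71. Its difference therefore changed sign with KO2, from -0.06 to 0.22 without it (adjusted p = 0.171, limma). The Cps1 probe comes from a cDNA that the files describe only as weakly similar to this enzyme. Otc, ornithine transcarbamylase, read 4.83 on KO2 and 5.63 to 5.72 on the others, and its difference moved from -0.15 to 0.02. Nags, which makes the activator of Cps1, differed by -0.07 (SE 0.07), or -0.03 without KO2.

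Among glutamate, ornithine and proline enzymes, 0 of 4 passed, and the median difference was -0.38, or -0.17 without KO2. Oat, ornithine aminotransferase, had the smallest p, with 6.82, 6.90, 6.73, 6.86 and 6.46 in wild type and 6.39, 6.05, 6.33, 6.30 and 6.89 in the knockout. KO5 lay within the wild-type range and the other 4 below it, and the difference was -0.37 (SE 0.15, adjusted p = 0.177, limma), or -0.28 without KO2. Gls2, the liver glutaminase, was 3.86-fold below the wild-type mean on KO2, at 4.64, and between 6.41 and 6.62 on the other knockout arrays, inside the wild-type range of 6.39 to 6.75. Prodh, proline dehydrogenase, read 4.55 on KO2 and 5.34 to 5.59 on the others, against 5.46 to 5.76 in wild type. Glud1, glutamate dehydrogenase, was not low on KO2, at 7.52 against a wild-type mean of 7.49.

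Of the 4 transaminases 1 passed on all arrays and 3 without KO2, and the median difference was -0.50, or -0.33 without KO2. Gpt2, the mitochondrial alanine transaminase (probe at chr8:84117668-84117727, mm7), was at 5.27, 5.43, 5.15, 4.94 and 5.23 in wild type and at 4.87, 4.08, 4.38, 4.503 and 4.28 in the knockout. Every knockout array was below every wild-type array, with KO1 close to WT4. Gpt2 fell by 0.78 on the log2 scale (SE 0.15, 1.72-fold, adjusted p = 0.0172, limma), and by 0.70 without KO2 (adjusted p = 0.0214, limma). Against WT5 alone, within slide 2, the difference was -0.79, or -0.60 without KO2. Leaving out WT2 raised its adjusted p to 0.0523, the only single array whose removal ended this call.

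Gpt, the cytosolic alanine transaminase (called Gpt1 in the files), was at 5.89, 5.94, 6.00, 6.07 and 5.96 in wild type and at 5.59, 4.5, 5.52, 5.66 and 5.43 in the knockout. The groups did not overlap, but KO2 lay far below the rest, and the difference of -0.63 (SE 0.20) had an adjusted p of 0.0931 by limma. Without KO2 it was smaller, -0.42, and passed (adjusted p = 0.0101, limma). Got2 followed the same course, from -0.36 (adjusted p = 0.112, limma) to -0.24 without KO2 (adjusted p = 0.0381, limma). Its levels were 6.11 to 6.24 in wild type, 5.34 on KO2 and 5.91 to 5.97 on the other knockout arrays. Got1, the cytosolic aspartate transaminase, varied widely in both groups, from 4.64 to 5.74 in wild type and from 3.22 on KO2 to 5.84 on KO1, and its difference moved from -0.37 to 0.01 without KO2.

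**Figure D3:**
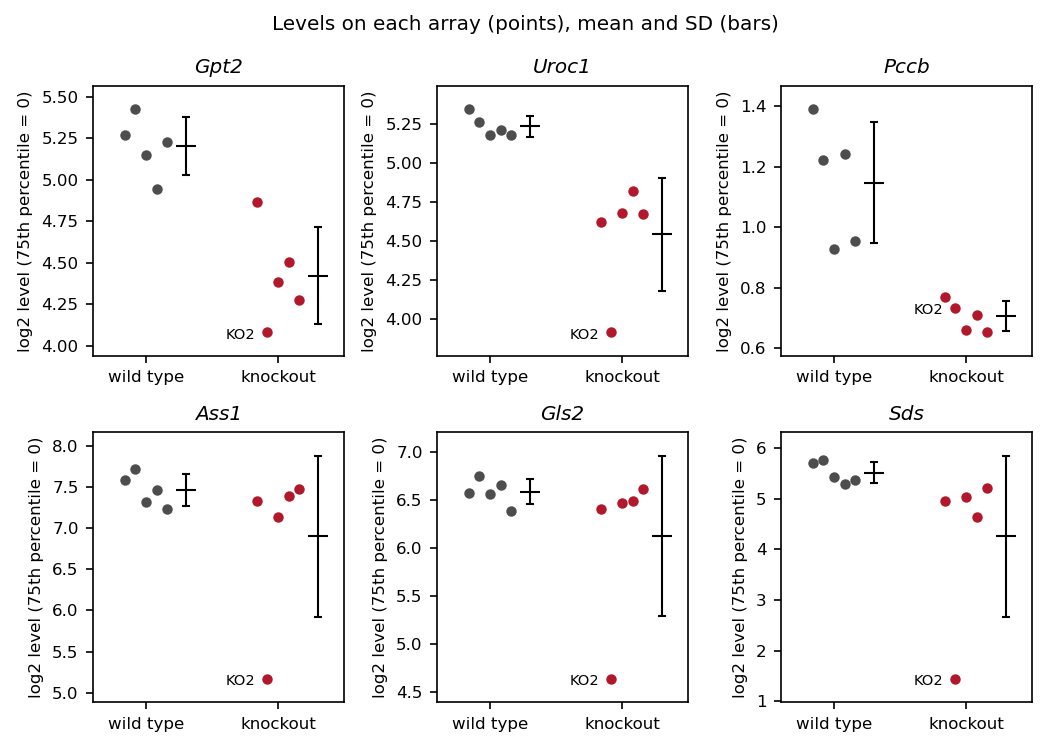
Log2 level relative to the array's 75th percentile (vertical) of 6 members on each wild-type (grey) and knockout (red) array, with the group mean and SD beside the points and KO2 labelled, and a separate vertical scale for each gene. In the top row every knockout point lies below every wild-type point. In the bottom row KO2 is far below the rest.

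In histidine breakdown, Uroc1, the enzyme after histidase (probe at chr6:90439857-90439916, mm7), was the member that passed. It was at 5.34, 5.26, 5.18, 5.21 and 5.18 in wild type and at 4.62, 3.92, 4.68, 4.82 and 4.67 in the knockout. The groups did not overlap, and the gap stayed wide without KO2. Uroc1 fell by 0.69 on the log2 scale (SE 0.15, 1.62-fold, adjusted p = 0.0309, limma) and by 0.54 without KO2 (adjusted p = 0.00335, limma). Against WT5 alone, within slide 2, its difference was -0.78, or -0.53 without KO2. With KO2 included, leaving out any single wild-type array or KO5 ended the call, with an adjusted p of up to 0.0809. Hal, histidase itself, read 4.52 on KO2 and 5.35 to 5.69 on the other knockout arrays, against 5.38 to 5.74 in wild type. Ftcd, which completes the pathway, differed by -0.30 (SE 0.14) and by -0.17 without KO2.

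No member of phenylalanine and tyrosine breakdown passed, and the median of the 4 went from -0.31 to -0.08 without KO2. Hpd, hydroxyphenylpyruvate dioxygenase, had the smallest p, at 6.38, 6.58, 6.60, 6.56 and 6.51 in wild type and 6.30, 5.39, 6.28, 6.38 and 6.42 in the knockout. Only KO5 reached the wild-type range, KO4 lying just below it, and the difference was -0.37 (SE 0.18, adjusted p = 0.246, limma), or -0.18 without KO2. Tat, tyrosine aminotransferase, a gene known for its induction by glucocorticoids, was 3.01-fold below the wild-type mean on KO2, at 5.24. Its other knockout levels were 6.37 to 6.89, against 6.59 to 6.98 in wild type. Hgd, homogentisate dioxygenase, was 2.51-fold lower on KO2, and Fah, the last enzyme, 1.44-fold.

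Of tryptophan breakdown, 3 of 5 listed genes were tested and 0 passed. Kmo, kynurenine monooxygenase, was at 2.76, 2.87, 2.77, 3.18 and 2.88 in wild type and 3.002, 2.05, 2.37, 2.51 and 2.77 in the knockout, with overlap at KO1 and KO5. Its difference was -0.35 (SE 0.17, adjusted p = 0.237, limma), or -0.23 without KO2. Tdo2, the dioxygenase that opens the pathway, was at 5.04, 5.53, 5.45, 5.82 and 5.33 in wild type and 5.23, 3.79, 5.50, 5.22 and 5.31 in the knockout. KO2 alone lay outside the wild-type range, 3.13-fold below its mean, and the difference was -0.43 (SE 0.30, adjusted p = 0.427, limma) or -0.12 without KO2. Kynu, kynureninase, read 1.55 on KO2 and 2.37 to 2.70 on the other knockout arrays. A probe with an Ensembl name, described in the files as Haao and not counted among the members, was 3.55 in wild type and 3.10 in the knockout, a difference of -0.46 (SE 0.18, adjusted p = 0.168 over probes, limma), or -0.28 without KO2.

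The branched-chain enzymes were the largest group, and 10 of 11 differences were below 0 both with and without KO2. The median was -0.38 with it and -0.22 without it. Pccb, the beta subunit of propionyl-CoA carboxylase (probe at chr9:100625425-100625484, mm7), was at 1.39, 1.22, 0.93, 1.24 and 0.95 in wild type and at 0.77, 0.73, 0.66, 0.71 and 0.65 in the knockout. The groups did not overlap, the spread was larger in wild type (SD 0.20) than in the knockout (SD 0.05), and KO2 was second highest of its group. Pccb fell by 0.44 on the log2 scale (SE 0.10, 1.36-fold, adjusted p = 0.0286, limma) and by 0.45 without KO2 (adjusted p = 0.036, limma). Against WT5 alone, within slide 2, the difference was -0.23, or -0.24 without KO2. Leaving out WT1, WT2, WT4, KO3, KO4 or KO5 ended the call, with an adjusted p of up to 0.0818.

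Bckdhb, the E1 beta subunit of the branched-chain keto acid dehydrogenase, came next by p. It was at 3.997, 4.64, 4.46, 4.60 and 4.47 in wild type and at 4.38, 3.62, 3.78, 3.70 and 3.70 in the knockout, so that WT1 lay low and KO1 high for their groups. Its difference was -0.59 (SE 0.17, adjusted p = 0.0676, limma) and -0.54 without KO2 (adjusted p = 0.107, limma). Bckdhb passed with array weights, with slide as a random block, and when WT1 or KO1 was left out. The E1 alpha subunit Bckdha differed by -0.23 (SE 0.08) and the E2 subunit Dbt by -0.43 (SE 0.13), or by -0.17 and -0.36 without KO2, none past the threshold. Bckdk, the kinase that inhibits this complex, went the other way on KO2, which was the highest of all 10 arrays at 0.87, against 0.39 to 0.44 on the other knockout arrays and 0.55 to 0.77 in wild type. The Bckdk difference was -0.11 (SE 0.10), or -0.20 without KO2.

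Further along valine and isoleucine breakdown, Pcca, the partner of Pccb, differed by -0.56 (SE 0.22) and Mut, methylmalonyl-CoA mutase (current symbol Mmut), by -0.32 (SE 0.11), or by -0.34 and -0.22 without KO2. For leucine, the 2 subunits of methylcrotonyl-CoA carboxylase, Mccc1 and Mccc2, differed by -0.38 (SE 0.15) and -0.40 (SE 0.17), or by -0.24 and -0.22 without KO2. Ivd, isovaleryl-CoA dehydrogenase, was the only member with a positive difference on all arrays, 0.08 (SE 0.13; 0.06 without KO2), which median centring turned to -0.02, and its second probe gave -0.24 (SE 0.11). Bcat2, the branched-chain transaminase, differed by -0.08 (SE 0.08), or -0.07 without KO2. None of these passed.

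Both lysine enzymes were lower without passing. Gcdh, glutaryl-CoA dehydrogenase, was at 7.04, 7.14, 7.03, 7.09 and 7.13 in wild type and at 6.76, 6.40, 6.99, 6.88 and 6.73 in the knockout. The groups did not overlap, and the difference was -0.33 (SE 0.10, adjusted p = 0.0914, limma), or -0.24 without KO2. Aass, which starts lysine breakdown, read 4.77 on KO2, and its difference moved from -0.36 to -0.16 without that array.

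Sds, serine dehydratase, which turns serine into pyruvate for gluconeogenesis, had the most extreme reading of all members. Its probe covers chr5:119717082-119717141 in mm7 and is shown because of that reading.
Sds: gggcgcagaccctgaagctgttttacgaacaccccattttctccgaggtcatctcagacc

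Sds was at 5.71, 5.77, 5.44, 5.30 and 5.37 in wild type and at 4.96, 1.44, 5.03, 4.63 and 5.22 in the knockout. KO2 lay 16.8-fold below the wild-type mean, and the other knockout arrays were also all below the wild-type range, KO5 by little. The difference was -1.26 (SE 0.64, 2.39-fold, adjusted p = 0.265, limma), and without KO2 it was -0.55 with a smaller SE of 0.14 (adjusted p = 0.0517, limma). Gldc, the decarboxylase of the glycine cleavage system, read 2.22 on KO2, 2.91-fold below wild type, and 3.22 to 3.82 on the other knockout arrays, against 3.63 to 3.995 in wild type.

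The sulfur amino acid genes had the smallest median difference of the 10 pathways on all arrays, -0.18, or -0.07 without KO2, and 0 of 9 passed. Mat1a, which makes S-adenosylmethionine in adult liver, had the smallest p, at 7.04, 6.83, 6.66, 6.65 and 6.67 in wild type and 6.61, 6.88, 6.46, 6.53 and 6.48 in the knockout. Here KO2 was the highest knockout array, and the difference was -0.18 (SE 0.11, adjusted p = 0.349, limma) or -0.25 without it. Gnmt, which disposes of excess S-adenosylmethionine, was at 8.07, 8.08, 7.86, 8.01 and 7.99 in wild type and 7.98, 7.04, 7.80, 7.94 and 7.99 in the knockout. KO2 and, by little, KO3 lay below the wild-type range, and the difference was -0.25 (SE 0.17, adjusted p = 0.412, limma), or -0.07 without KO2.

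Bhmt, which remethylates homocysteine with betaine, was 4.11-fold below the wild-type mean on KO2, at 5.24, and at 6.99 to 7.32 on the other knockout arrays, against 7.12 to 7.41 in wild type. Its neighbour Bhmt2 was 1.75-fold lower on KO2. On the way to cysteine, Cth, the lyase, was 2.73-fold lower on KO2 while Cbs, the synthase before it, was 1.06-fold lower, at 4.26 against a wild-type mean of 4.34. Ahcy, which hydrolyses S-adenosylhomocysteine, was 1.92-fold lower on KO2 and differed by -0.07 without it. Cdo1, cysteine dioxygenase, differed by -0.14 (SE 0.10), or -0.08 without KO2, and Csad, which follows it towards taurine, by 0.00 (SE 0.18), or 0.01 without KO2.

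**Figure D4:**
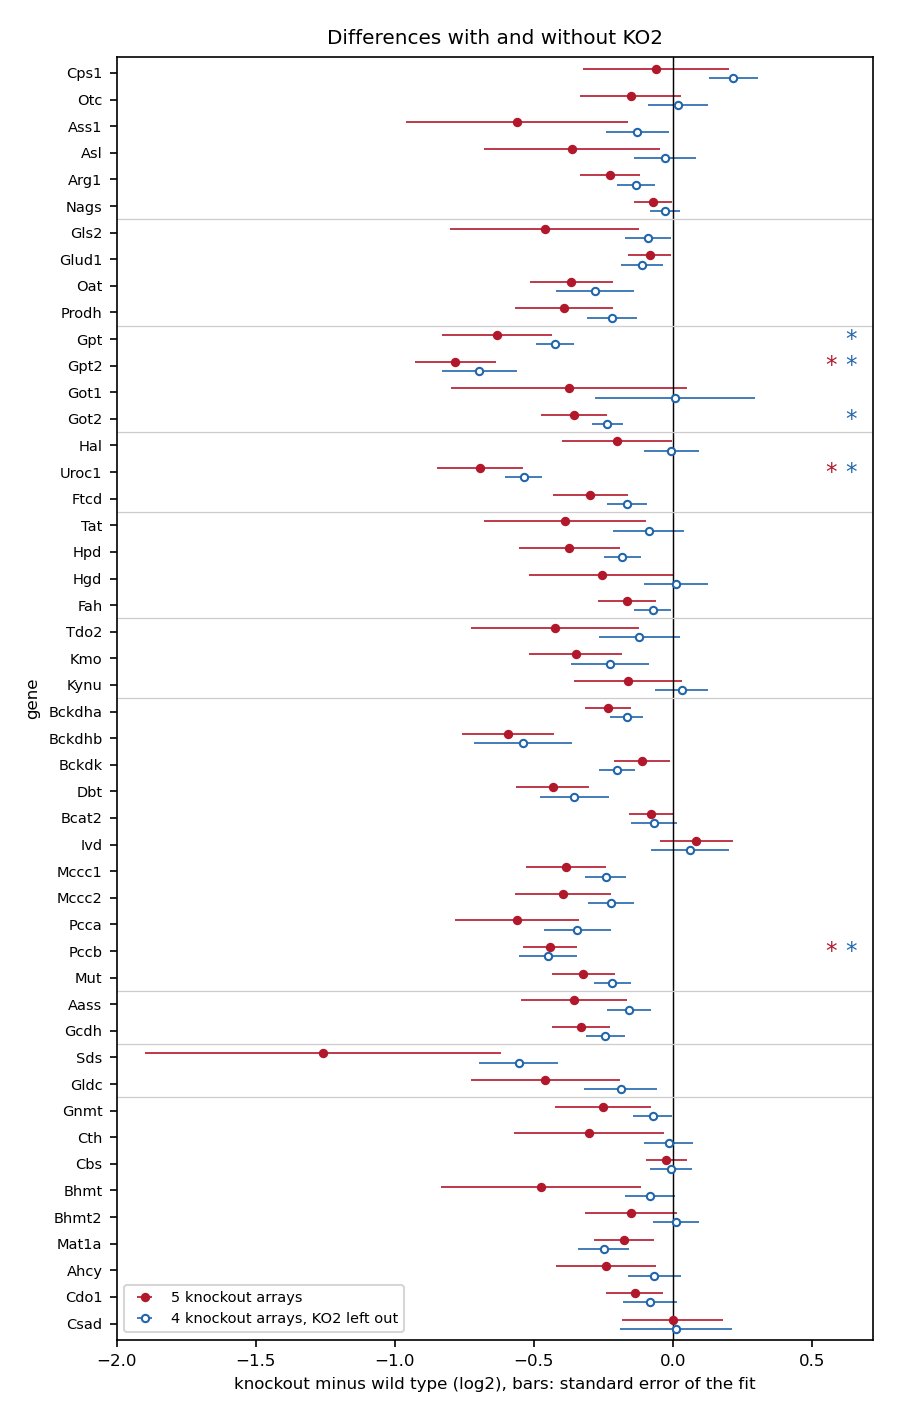
Knockout minus wild-type difference (log2, horizontal) of each of the 48 members (rows, by pathway), with all 5 knockout arrays (red, filled) and with KO2 left out (blue, open). Bars are the standard error of the limma fit and stars mark an adjusted p under 0.05 in the fit of that colour. Most open points lie nearer 0, and the stars stand at Gpt2, Uroc1 and Pccb in red and blue, and at Gpt and Got2 in blue only.

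The 8 members that were not lowest on KO2 were Glud1, Bckdk, Bcat2, Ivd, Pccb, Cbs, Mat1a and Csad. They are spread over 3 of the pathways, with 4 branched-chain genes, 3 sulfur amino acid genes and Glud1. The 24 mitochondrial members tested had a median difference of -0.36, or -0.22 without KO2, and the 24 cytosolic ones -0.28, or -0.08 without it. This grouping by compartment was made after the levels were seen, and the difference between the groups was not tested. For 14 members a further probe was kept, 17 probes in all, and 13 of these had the sign of the chosen probe. The 4 that did not belong to Ivd, Bcat2, Kynu and Csad, and 0 of the 17 passed.

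Further genes of the same pathways, listed beside the members, gave a like picture. Of 57 listed, 53 were tested, 43 had a difference below 0, and the median was -0.25, or -0.15 without KO2. KO2 was the lowest array for 45 of the 53, and their median on KO2 was -0.75. In all, 3 fell (5.66%, against 3.49% of all genes), among them Hibadh of valine breakdown and Gstz1 of tyrosine breakdown, and 1 rose.

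Hibadh fell by 0.43 (SE 0.09, adjusted p = 0.028, limma), with 6.51 to 6.66 in wild type and 5.86 to 6.32 in the knockout, and lost the call when any wild-type array was left out. Gstz1 fell by 0.44 (SE 0.10, adjusted p = 0.0325, limma), from 5.99 to 6.13 in wild type to 5.25 on KO2 and 5.67 to 5.73 on the others, and lost it without any wild-type array, KO4 or KO5. Without KO2, 6 of the 53 fell (11.3%, against 3.89% of all genes), among them Hibadh, Gstz1, Prodh2, Hsd17b10 and Suox.

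Of 14 regulators listed for these pathways, 13 were tested. Ppara, the receptor that directs fatty acid oxidation in fasting and also acts on amino acid genes, was the one that passed. Its level was 4.05, 4.25, 4.34, 4.44 and 4.39 in wild type and 4.13, 3.22, 3.66, 3.79 and 3.68 in the knockout, with KO1 inside the wild-type range. Ppara fell by 0.60 on the log2 scale (SE 0.15, 1.52-fold, adjusted p = 0.0482, limma) and by 0.48 without KO2 (adjusted p = 0.0464, limma). The removal of any wild-type array, KO3, KO4 or KO5 ended that call, with an adjusted p of up to 0.108. Klf15, known to induce amino acid breakdown in fasting, differed by -0.35 (adjusted p = 0.287, limma), or -0.20 without KO2. Atf4 had the smallest p of the regulators that did not pass, and it went the other way. It differed by 0.26 (SE 0.08, adjusted p = 0.0964, limma), or 0.24 without KO2.

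Markers of liver cells were measured beside these genes. Of 8 hepatocyte markers 7 were measured, all above background on all arrays, and their median was -0.05 on KO2. Ttr was 1.77-fold below the wild-type mean on KO2, its lowest array, and the others were at most 1.17-fold from it in either direction. The summed signal of the 7, in units of the array's 75th percentile, was 1567 to 1875 in wild type, 1539 to 1922 in the knockout and 1662 on KO2. The same sum over the 48 members was 3059 to 3364 in wild type, 2789 to 2954 on KO1, KO3, KO4 and KO5, and 1711 on KO2, a sum that the brightest probes dominate. The 8 sinusoidal endothelial markers summed to 19.8 to 28.2 in wild type and 30.4 to 47.9 in the knockout, with 33.5 on KO2 and no overlap between the groups, and 1 of the 8, Dnase1l3, rose (a call that ended without WT2, WT3 or KO5), while Lyve1 differed by -0.51 without passing. The 8 Kupffer cell and macrophage markers summed to 35.2 to 86.4 in wild type and 35.2 to 94.0 in the knockout. The 8 stellate and fibroblast markers summed to 65.5 to 80.3 in wild type and 73.1 to 85.4 in the knockout, with 85.2 on KO2. Of 6 cholangiocyte markers 5 were measured. They summed to 5.74 to 9.51 in wild type, 7.66 to 12.6 on KO1, KO3, KO4 and KO5, and 21.5 on KO2. Their median relative to the wild-type mean on KO2 was -0.15. Of 6 lymphocyte markers 4 were measured, with sums of 0.535 to 0.769 in wild type and 0.531 to 1.45 in the knockout. Periportal hepatocyte markers, 8 genes from the zone rich in urea cycle enzymes, summed to 1064 to 1206 in wild type, 1065 to 1326 on the other knockout arrays and 987 on KO2, and to 672 to 738, 684 to 817 and 598 with the abundant Alb left out. They did not share 1 direction: Cyp2f2 was 2.13-fold below the wild-type mean on KO2, while Pck1 was above every wild-type array on all 5 knockout arrays (0.46, adjusted p = 0.0593, limma). The 10 pericentral markers summed to 565 to 627 in wild type and 511 to 570 in the knockout, and 1 of them, Rhbg, fell by 0.88 (adjusted p = 0.04, limma), a call that any single array but KO5 ended when left out (without KO2 -0.90, adjusted p = 0.0554, limma). The part of other cell types or zones in the members' differences was not tested.

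The label of the knockout arrays was checked on Nr2c2. A cDNA probe in its locus (chr6:92237812-92237871, mm7) was well above background on 5 wild-type arrays and 0 knockout arrays, and knockout signal was lower by at least 5.41-fold (adjusted p = 0.000212 over probes, limma). KO2 was not well above background there either. The bound sets the wild-type mean against the dimmest signals well above background on the knockout arrays. Of the 2 probes named Nr2c2, 1 was higher in the knockout by 0.44 (adjusted p = 0.0428 over probes, limma) and the other differed by 0.36 (adjusted p = 0.144 over probes, limma), and the labels do not give the deleted part of the gene.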

How the data were processed

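Image quantification by the authors used Agilent Feature Extraction 9.5.1.1, as the file headers state (9.5 in the processing notes). Per the file headers, the program subtracted background and detrended each array, and the deposited intensity values carry no scaling between arrays. The series value table held the same deposited intensity values.

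Intensities were put on the log2 scale without a pseudocount and each array's 75th percentile was subtracted, both computed here from the deposited values. Outlier-flagged spots were set to missing. A probe was kept where 4 or more of the 5 arrays of a group were well above background (23266 of 41174), and the brightest probe per gene was kept. Knockout and wild type were compared with limma 3.58.1 in R 4.3.3 (lmFit, eBayes, two-sided, genotype as the only term). The fit was also run on simulated data. These held independent normal values with no outlying array and no slide effect, so that run does not cover either. The share of probes well above background was 51.0% to 62.4% by array, 0 member spots were saturated, and the number of arrays limits the precision.

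The members and lists were chosen with earlier results of these data known. Every array's value is given for members past the threshold and for the 2 members of each pathway with the smallest p (1 in pathways of up to 4), and for regulators past it; further genes past it are given by range, and 2 of those are not reported here by name or level. Gpt, Got2, Gls2 and others named for KO2, the Ass1 and Sds probes, and Atf4 were chosen after their values were seen. Klf15, which did not pass, was named outside the rule for regulators. Alternatives in scaling, background correction, filter, probe choice, slide, array weights and single arrays left out were run. Probe positions are those of the files (mm7), promoters are from RefSeq (GRCm38.p6), and no genome was used to place probes in exons or untranslated regions.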

Additional observations from a re-analysis of the deposited data

Results flagged for a closer look

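Dixon's test was run on groups of 5 arrays. By chance it flags any 1 of the 5 in about 1 in 20 groups, and a given array such as KO2 more rarely. By this test 25 of 48 members (52.1%) had KO2 far from the other knockout arrays. Of all 15784 genes with a value on every knockout array, 5.13% did. KO2 was low for 24 of the 25, against 3.59% of all genes, and high for Bckdk, at 0.87. The flagged KO2 levels of urea cycle genes were 5.41 for Cps1, 4.83 for Otc, 5.17 for Ass1, 3.98 for Asl and 4.74 for Nags. For glutamate, proline and transaminase genes they were 4.64 for Gls2, 4.55 for Prodh, 4.5 for Gpt and 5.34 for Got2. Those of histidine, aromatic and tryptophan breakdown were 4.52 for Hal, 3.92 for Uroc1, 5.39 for Hpd, 4.20 for Hgd, 3.79 for Tdo2 and 1.55 for Kynu. In branched-chain and lysine breakdown they were 3.86 for Mccc1, -0.20 for Mccc2, 5.18 for Mut (current symbol Mmut) and 4.77 for Aass. The remaining ones were 1.44 for Sds, 7.04 for Gnmt, 4.16 for Cth, 5.24 for Bhmt and 6.23 for Ahcy.

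The median of the members relative to the wild-type mean on KO2, -0.94, and that of the further genes, -0.75, were apart from the other knockout arrays by the same test, as was Gstz1 on KO2 at 5.25. Arrays other than KO2 stood apart for Bckdhb, at 3.997 on WT1 and 4.38 on KO1, and for Pcca, at 3.14 on WT3.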

How the results depend on the processing

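The number of members that fell, 3, was 0 without scaling, 0 with no filter, 0 with slide as a fixed block, 0 within slide 2 and 6 with array weights, which gave KO2 the lowest weight, 0.227. The members added with array weights were Gpt, Bckdhb and Gcdh. The number ranged from 0 to 5 when single arrays were left out, 5 being without KO2 and 0 without WT2, with 1 left without WT4 or KO5. No member rose under any alternative. The median member difference stayed between -0.44 (median centring) and -0.13 (without KO2, also within slide 2). Of the further genes, 3 fell; this was 0 without scaling, 6 with median centring, 1 with no filter, 0 with slide fixed or within slide 2, 6 with slide as a random block and 7 with array weights, and 1 to 6 with single arrays left out. The 1 that rose was 0 with median centring, no filter, adjustment over probes, slide fixed and within slide 2, 2 with slide random, and 0 to 1 with single arrays left out. Without scaling the median of all genes moved to 0.12, and 158 genes were lower and 315 higher, against 551 and 387, or 559 and 153 with median centring. The cause of these moves was not tested.

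With the replicate number as a block, 0 members and 0 further genes fell or rose. Same-numbered arrays correlated between -0.21 and 0.04, so the numbers were not taken to pair the samples.

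Of 1248 member differences over 26 alternatives, 50 changed sign, in 23 members, none of them past the threshold. Within slide 2 without KO2 (chosen after seeing the data) they were Cps1 0.38, Otc 0.0079, Ass1 0.0078, Asl 0.14, Gls2 0.045, Got1 0.28, Hal 0.16, Tat 0.0044, Hgd 0.14, Tdo2 0.033, Kynu 0.18, Ivd -0.024, Aass 0.029, Gldc 0.11, Cth 0.19, Cbs 0.056, Bhmt2 0.23, Ahcy 0.049 and Cdo1 0.062. Without scaling they were Cps1 0.048, Nags 0.037, Glud1 0.025, Bcat2 0.029, Cbs 0.086 and Csad 0.11. Quantile scaling turned Cps1 (0.018), Cbs (0.0014) and Csad (0.081), array weights Cps1 (0.14) and Cbs (0.0092), and normexp with quantile Csad (0.048). Slide fixed or within slide 2 turned Cbs (0.052), slide random Csad (0.057), averaged probes Ivd (-0.077) and Csad (0.14), and median centring Ivd (-0.016). With single arrays left out, and the highest value without KO2, Cps1 ranged from -0.16 to 0.22, Otc from -0.24 to 0.019, Got1 from -0.65 to 0.0063, Hgd from -0.36 to 0.013, Kynu from -0.25 to 0.032 and Bhmt2 from -0.25 to 0.011. Other arrays set the range of Ivd, -0.022 to 0.15, Cbs, -0.058 to 0.0088, and Csad, -0.11 to 0.13.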
